A study of Mus musculus with 12 samples.

Results

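The proteasome genes of BV-2 cells were followed through 12 catalogues of spliced transcripts. The genes were taken by name: every gene symbol that starts with Psma, Psmb, Psmc, Psmd, Psme, Psmf or Psmg and a number, as listed in any catalogue. This rule found 48 of the 14275 genes listed. Of the 48, Psmc3ip and Psme3ip1 carry the name of a proteasome gene they were linked to and encode no proteasome subunit. BV-2 is an immortalised line of mouse microglia, the macrophages of the brain, made by oncogene transformation, so that every library came from the same line. The labels call the cell type macroglia, whereas the catalogues listed 8 of 9 microglia and macrophage markers in all 12 libraries. Libraries were made from total RNA of 4 groups of 3: Control, with no agent named; LPS (lipopolysaccharide of bacterial outer membranes, a trigger of inflammation); NMN (nicotinamide mononucleotide), a precursor of NAD; and LPS+NMN, with both agents. The study's stated interest was how NMN affects the ferroptosis, an iron-dependent form of cell death, that LPS induces in these cells. The labels give neither dose nor time. They do not say whether replicate libraries were separate cultures, so p-values measure the spread between these 12 libraries and that spread may be technical.

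The proteasome degrades proteins tagged with ubiquitin. Its barrel-shaped core has outer rings of alpha subunits (Psma genes) and inner rings of beta subunits (Psmb genes), and only Psmb5, Psmb6 and Psmb7 among the constitutive beta subunits carry catalytic sites. In immune cells and after interferon, Psmb8, Psmb9 and Psmb10 replace Psmb5, Psmb6 and Psmb7 in newly built cores, which are then called immunoproteasomes, and Psme1 and Psme2 form the PA28 activator. These forms are known for cutting peptides that fit major histocompatibility complex class I. Activated microglia are known to induce them.

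The catalogues hold no read count, expression level or depth. Each line is a transcript event: a first exon, a last exon, a skipped exon, a run of skipped exons (cassette), a retained intron or an alternative end of an exon. The value for a gene is its number of distinct events in a library. It is neither a number of transcript forms nor a measure of how much RNA was made. A first and a last exon alone count as 2 events, and some exons are entered more than once. An event that is not listed may be absent or may rest on too few reads, and fewer cells and less RNA per cell cannot be told apart. Event positions are printed as the files give them, since they do not lie on GRCm38, the build in the submitters' processing notes, and no other assembly is named in the sources used here. After 1 shift for each gene (and, for Psmd6, a reversal of order, since the files have it on the plus strand and GENCODE M21 on the minus strand), 321 of 366 exon boundaries of the proteasome genes (87.7%) had the spacing of GENCODE M21 exons, and exon names, gene positions and sequences below come from GENCODE M21 on GRCm38.

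A skipped exon listed in every library and 3 whose skipping differed between libraries are shown here as transcript sequence from GENCODE M21, with the exon that was skipped, or the stretch that was added, in capitals. In the first 4, the lower-case letters are the 20 bases of the neighbouring exons on each side. Exon 5 of Psmb9 (142 bases, chr17:34183089-34183230, minus strand, coding) was listed as skipped in all 12 libraries. Exon 3 of Psmd11 (125 bases, chr11:80438251-80438375, plus strand, coding) was skipped in all LPS libraries and in no LPS+NMN library. Exon 9 of Psmd12 (175 bases, chr11:107494630-107494804, plus strand, coding) was skipped only in Control and LPS libraries. Exons 2 and 3 of Psmf1 (236 bases together, chr2:151734222-151735626 with the intron between them, minus strand, coding) were skipped as a run in 5 libraries. None of these 4 lengths is a multiple of 3.
Psmb9 exon 5: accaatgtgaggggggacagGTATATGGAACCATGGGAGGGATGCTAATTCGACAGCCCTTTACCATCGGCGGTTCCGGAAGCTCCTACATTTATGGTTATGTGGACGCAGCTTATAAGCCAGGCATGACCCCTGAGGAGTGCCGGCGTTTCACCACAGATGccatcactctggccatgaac
Psmd11 exon 3: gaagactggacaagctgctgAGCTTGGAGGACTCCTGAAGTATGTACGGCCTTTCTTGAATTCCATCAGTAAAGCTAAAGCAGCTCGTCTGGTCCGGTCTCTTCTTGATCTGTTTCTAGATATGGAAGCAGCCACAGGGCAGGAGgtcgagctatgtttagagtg
Psmd12 exon 9: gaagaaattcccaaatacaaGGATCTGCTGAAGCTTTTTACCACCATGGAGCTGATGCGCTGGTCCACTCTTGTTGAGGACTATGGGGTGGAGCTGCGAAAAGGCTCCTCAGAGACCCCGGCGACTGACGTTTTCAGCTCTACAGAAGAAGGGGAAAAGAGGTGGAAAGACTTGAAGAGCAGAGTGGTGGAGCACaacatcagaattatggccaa
Psmf1 exons 2 and 3: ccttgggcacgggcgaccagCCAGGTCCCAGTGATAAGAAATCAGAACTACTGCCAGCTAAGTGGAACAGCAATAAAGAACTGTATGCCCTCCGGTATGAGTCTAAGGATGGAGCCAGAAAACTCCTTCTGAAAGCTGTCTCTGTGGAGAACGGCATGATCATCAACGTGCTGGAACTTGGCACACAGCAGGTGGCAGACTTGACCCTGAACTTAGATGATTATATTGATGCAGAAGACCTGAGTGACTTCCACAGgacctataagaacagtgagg

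Another 3 exons had alternative ends. In exon 3 of Psmb9 (chr17:34184263-34184413, minus strand), the longer form annotated as Psmb9-207, a transcript of the nonsense-mediated decay class, adds the 19 coding bases in capitals and further bases that are not shown. The exon of Psme1 that has 98 bases in the catalogues can begin 48 bases earlier (chr14:55580282-55580403, plus strand, in Psme1-205, a transcript of the retained-intron class). The sequence shown is the exon of Psme1-205, of 122 bases, which ends before the end of the 98-base exon at 55580427. The first 19 of the 48 added bases are the same letters as the first 19 bases of the exon itself. Exon 2 of Psma3 (chr12:70978733-70978839, plus strand) ends 24 bases later in Psma3-206, which is also of the nonsense-mediated decay class.
Psmb9 exon 3, coding part: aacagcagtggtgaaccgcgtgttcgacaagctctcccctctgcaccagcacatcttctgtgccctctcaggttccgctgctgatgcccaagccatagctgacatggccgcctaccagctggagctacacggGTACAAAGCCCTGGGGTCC
Psme1 exon with earlier start: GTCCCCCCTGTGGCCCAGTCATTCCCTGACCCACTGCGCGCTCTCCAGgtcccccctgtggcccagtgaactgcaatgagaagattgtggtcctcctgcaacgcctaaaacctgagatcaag
Psma3 exon 2 with later end: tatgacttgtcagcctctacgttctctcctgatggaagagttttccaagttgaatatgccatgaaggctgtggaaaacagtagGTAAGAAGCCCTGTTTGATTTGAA

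All 48 genes were listed in all 12 libraries. The libraries listed 11911 to 12246 genes each, with 50784 to 55787 distinct events, and the proteasome genes had between 158 and 188 events per library. Summed over the 48 genes, the Control libraries had 168, 172 and 167 events, LPS 179, 162 and 170, NMN 158, 162 and 169, and LPS+NMN 170, 188 and 184. These sums overlapped between LPS+NMN and Control (lowest LPS+NMN 170, highest Control 172). Of the 281 distinct proteasome events, 117 (41.6%) were in all 12 libraries and 63 (22.4%) in 1 library, against 16.2% and 44.0% of the 141591 events of all genes. The proteasome genes thus had a larger share of events common to all libraries, a difference that was not tested. The sets are unlike, since no library listed all of the 14275 genes. An event of a gene missing from a library cannot be in all 12.

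**Figure D1:**
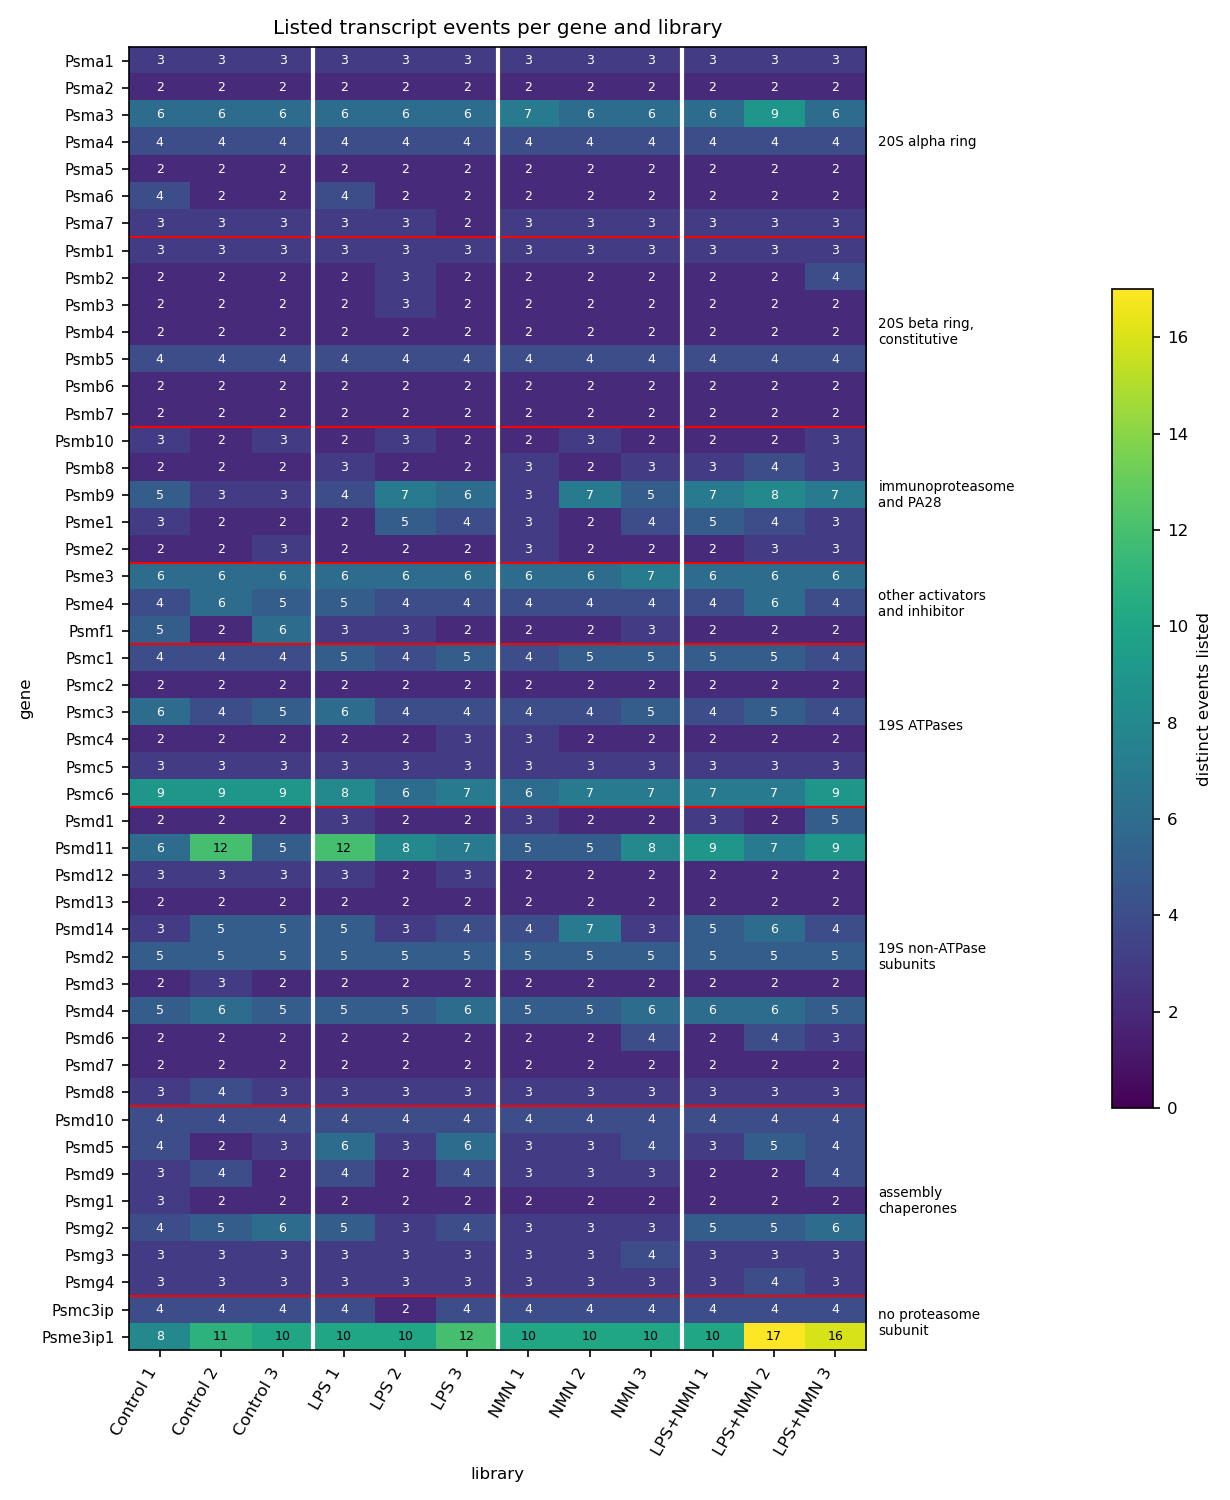
Number of distinct events listed for each of the 48 genes (vertical axis, grouped by role between red lines) in each of the 12 libraries (horizontal axis); colour and printed number give the same value. Core genes such as Psma1 and Psmb6 show 1 number throughout, whereas Psmb9, Psmd11 and Psme3ip1 vary between libraries.

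In 15 genes the number of events was the same in all 12 libraries, so they could not be tested. These were Psma1, Psma2, Psma4, Psma5, Psmb1, Psmb4, Psmb5, Psmb6, Psmb7, Psmc2, Psmc5, Psmd2, Psmd7, Psmd10 and Psmd13. All 3 constitutive catalytic subunits are among them: Psmb6 and Psmb7 had 2 events in every library and Psmb5 had 4. The events of Psmb5 include an exon with 307 or 46 bases, a pair listed in all 12 libraries. Of the other 33 genes, 14 varied by 1 event, 8 by 2 and 11 by more. A constant number does not mean the same events: Psmb5 in LPS replicate 3 and Psma2 in Control replicate 2 had a first and a last exon on the strand opposite to the gene in place of their own.

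First exons made up 95 of the 281 distinct events and last exons 74. There were 48 alternative exon ends, 46 entries for skipped exons, 16 for cassettes and 2 retained introns, the last in all 12 libraries. The skipped exons had 40 different spans (start and end) in 21 genes, from 36 to 1166 bases long with a median of 114. Some spans are 1 exon with slightly different ends, such as the forms of 58 and 59 bases in Psmg2. Of these 40, 34 matched an annotated exon, 23 were coding over their whole length and 14 had a length that is a multiple of 3. Skipping was listed in all 12 libraries for 7 spans and in 1 library for 10. By library, first exons numbered 67, 66 and 65 in Control and 71, 64 and 67 in LPS. They numbered 67, 65 and 69 in NMN and 68, 71 and 69 in LPS+NMN, where each library was above each Control library. Alternative exon ends numbered 22, 28 and 26 in Control, 28, 22 and 24 in LPS, 20, 24 and 24 in NMN and 30, 32 and 30 in LPS+NMN. The LPS+NMN libraries were the highest of the 12 in this count. The count includes an alternative end of Psme3ip1, which encodes no proteasome subunit, with forms of 156 and 134 bases. Both forms were listed in LPS+NMN replicates 2 and 3 alone. Without these entries, LPS+NMN replicate 3 would be level with the highest Control and LPS libraries, so the separation depends on this gene. Skipped exons numbered 20, 21 and 19 in Control, 24, 18 and 23 in LPS, 14, 16 and 18 in NMN and 18, 24 and 26 in LPS+NMN, with the NMN libraries all below the Control libraries. Alternative ends are listed in pairs, so 1 exon adds 2 events. These differences by type were not tested, and the numbers of all genes by type were not compared.

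**Figure D2:**
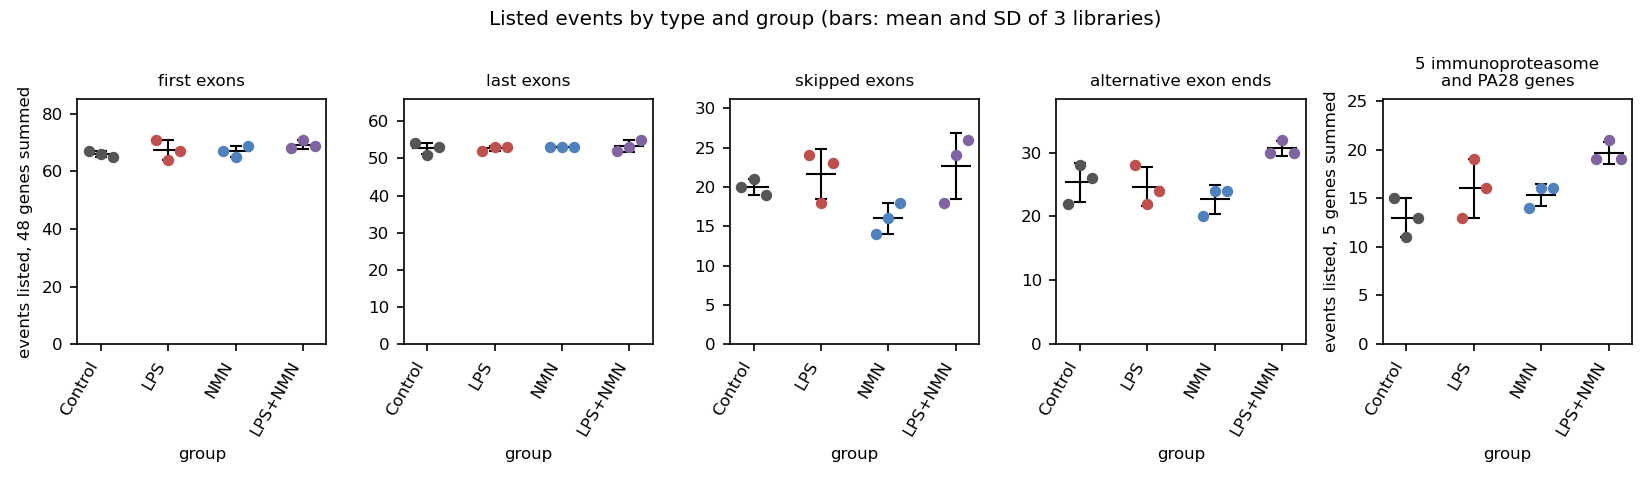
Events per library (vertical axes, number of listed events) by group (horizontal axes) for 4 event types summed over the 48 genes and, at the right, for all events of Psmb8, Psmb9, Psmb10, Psme1 and Psme2; points are libraries, bars the mean and SD of 3. First exons are at 68 to 71 in LPS+NMN against 65 to 67 in Control, and last exons overlap between groups. Alternative exon ends are at 30 to 32 in LPS+NMN against 22 to 28 in Control, with Psme3ip1 included. The 5 genes at the right have 19 to 21 events in LPS+NMN against 11 to 15 in Control.

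The immunoproteasome and PA28 genes had more listed events in LPS+NMN than in Control libraries. Their 5 genes together had 15, 11 and 13 events in Control, 13, 19 and 16 in LPS, 14, 16 and 16 in NMN and 19, 21 and 19 in LPS+NMN. The LPS+NMN and Control libraries did not overlap, whereas the LPS and Control libraries did. For the proteasome genes without these 5, the numbers were 153, 161 and 154 in Control and 151, 167 and 165 in LPS+NMN, and overlapped. The additional events lay mostly in Psmb9, Psmb8 and Psme1, and over the 3 libraries of each group Psme2 had 1 more in LPS+NMN and Psmb10 1 fewer. First exons of the 5 genes numbered 9, 5 and 7 in Control and 9, 11 and 11 in LPS+NMN. Their alternative exon ends, which are entered in pairs, numbered 0 in each Control library and 4, 4 and 2 in LPS+NMN. No member of the 5 passed the threshold of 0.05 after adjustment over the 11671 genes tested with limma, so these are differences in listed events and not calls.

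Psmb9, the immunoproteasome subunit that takes the place of Psmb6 (chr17:34181987-34187764, minus strand), had more events in LPS+NMN than in Control. Its events numbered 5, 3 and 3 in Control (mean 3.67 ± 1.15, SD, n = 3), 4, 7 and 6 in LPS (5.67 ± 1.53), 3, 7 and 5 in NMN (5.0 ± 2.0) and 7, 8 and 7 in LPS+NMN (7.33 ± 0.577). Every LPS+NMN library was above every Control library. On the log2(events + 1) scale, on which all differences below are given, LPS+NMN was 0.86 ± 0.27 (SE) above Control, with a limma p of 0.00793 and an adjusted p of 0.385. LPS alone was 0.51 ± 0.27 above Control, with overlapping groups and an adjusted limma p of 0.699. NMN alone was 0.33 ± 0.27 above Control, with an adjusted limma p of 0.873.

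The events of Psmb9 show which entries differed between libraries. Its main first exon, its last exon and the skipping of exon 5 were listed in all 12 libraries. A first exon ending at position 34406032, which ends as in Psmb9-206, was listed in no Control library, in all 3 LPS libraries, in 2 NMN libraries and in 2 LPS+NMN libraries. A first exon ending at 34406209, which matched no annotated exon, was in 1 Control, 1 LPS, 1 NMN and all 3 LPS+NMN libraries. The exon 3 form of 132 bases at 34403256-34403387, entered when an alternative end is found, was in no Control, 1 LPS, 1 NMN and all 3 LPS+NMN libraries. Its partner was the 258-base form of Psmb9-207 in 4 of these 5 libraries and a form of 444 bases in LPS+NMN replicate 2. Psmb9 lies head to head with Tap1, the peptide transporter, which overlaps it on the opposite strand, and whether the authors' assembly used strand is not stated.

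Psmb8, which takes the place of Psmb5 (chr17:34197721-34201454, plus strand), had 2 events in each Control library, 3, 2 and 2 in LPS, 3, 2 and 3 in NMN, and 3, 4 and 3 in LPS+NMN. All LPS+NMN libraries were above all Control libraries, by 0.52 ± 0.17 (SE; limma, adjusted p = 0.385). They were 0.38 ± 0.17 above LPS, where the libraries touched at 3 events (limma, adjusted p = 0.93). The added event was a second first exon. The usual first exon, with 756 bases at its widest over the libraries and the boundary of Psmb8-201, was in all 12 libraries. A first exon of 41 bases that ends at 34416735, as exon 1 of Psmb8-203 does, was listed in no Control library, 1 LPS library, 2 NMN libraries and all 3 LPS+NMN libraries. A longer form of it, with 157 bases, was in LPS+NMN replicate 2 alone.

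Psme1, the alpha subunit of PA28 (chr14:55578123-55581529, plus strand), had 3, 2 and 2 events in Control, 2, 5 and 4 in LPS, 3, 2 and 4 in NMN and 5, 4 and 3 in LPS+NMN. The groups overlapped. The difference between LPS+NMN and Control was 0.58 ± 0.28 (SE; limma, adjusted p = 0.668). A form of 146 bases, with the earlier start shown above, matched no annotated exon as a whole. It was listed, with its 98-base partner, in no Control library, 2 LPS, 1 NMN and 2 LPS+NMN libraries. A second first exon, with the boundary of Psme1-210, was in 1 Control, 1 LPS, 1 NMN and 2 LPS+NMN libraries.

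Psmb10 and Psme2 differed less between groups. Psmb10, which takes the place of Psmb7, had 3, 2 and 3 events in Control, 2, 3 and 2 in LPS, 2, 3 and 2 in NMN and 2, 2 and 3 in LPS+NMN. Its difference between LPS+NMN and Control was -0.14 ± 0.19 (SE), with an adjusted limma p of 0.866. Psme2, the beta subunit of PA28, had 2, 2 and 3 events in Control, 2 in each LPS library, 3, 2 and 2 in NMN and 2, 3 and 3 in LPS+NMN, a difference of 0.14 ± 0.17 (SE) from Control with an adjusted limma p of 0.854. The events that varied were mainly a second first exon in each gene, listed for Psmb10 in 2 Control libraries and 1 of each other group, and for Psme2 in 1 Control, 1 NMN and 2 LPS+NMN libraries. Over the 5 genes, 26 distinct events were listed, of which 10 (38.5%) were in all 12 libraries and 4 (15.4%) in 1.

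**Figure D3:**
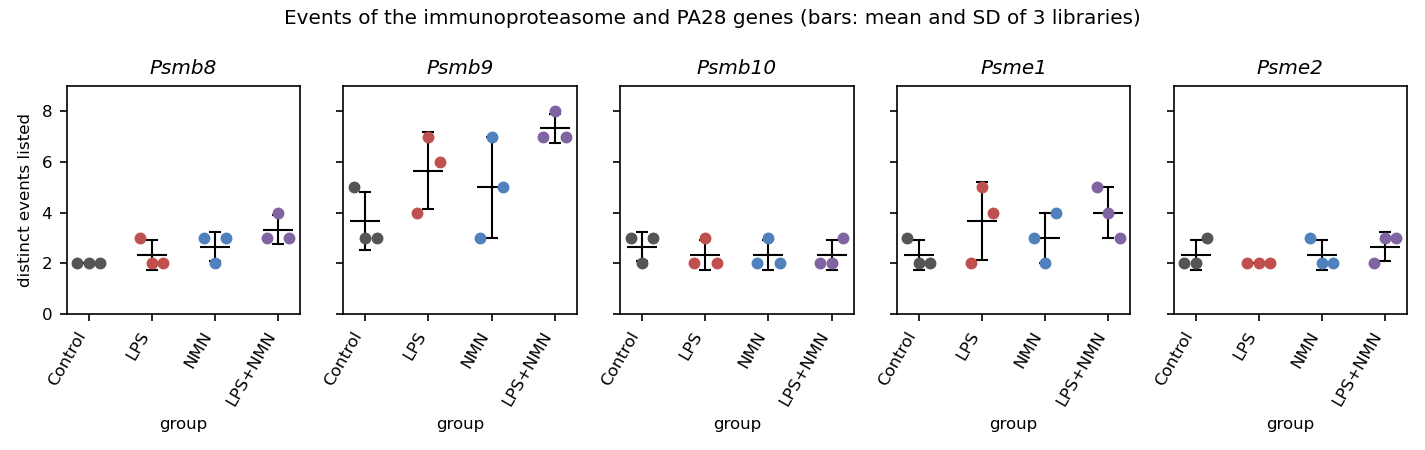
Distinct events (vertical axis) of Psmb8, Psmb9, Psmb10, Psme1 and Psme2 by group (horizontal axis); points are libraries, bars the mean and SD of 3. The LPS+NMN points of Psmb8 (3 to 4) and Psmb9 (7 to 8) lie above their Control points (2 and 3 to 5), while Psmb10 and Psme2 stay at 2 or 3 in all groups.

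**Figure D4:**
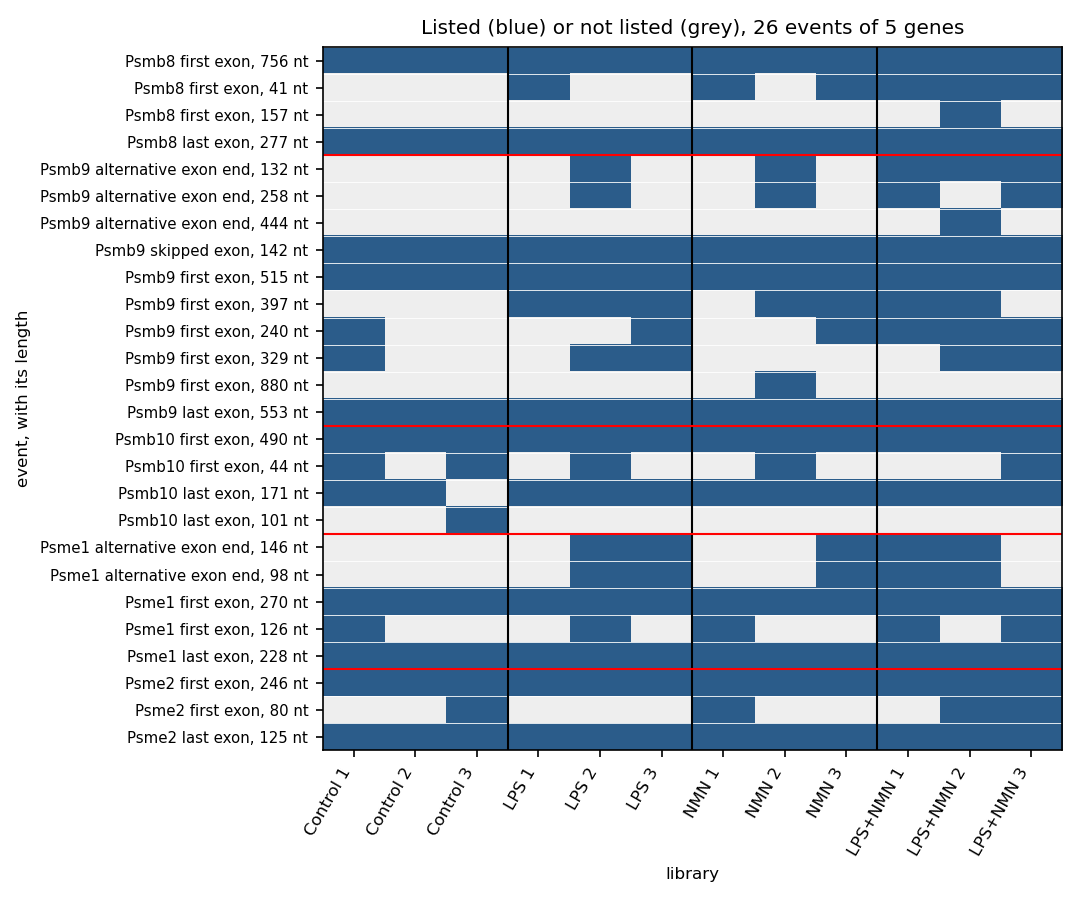
Each of the 26 events of the 5 genes (vertical axis, named by gene, type and length in bases) in each library (horizontal axis), blue where listed and grey where not. Lengths of first and last exons are the widest span over the libraries. No Control library lists the 41-base first exon of Psmb8, the 397-base first exon of Psmb9 or an alternative exon end of Psmb9 or Psme1.

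Among the other activators and the inhibitor, Psmf1 had fewer listed events in LPS+NMN than in 2 of the 3 Control libraries. Psmf1 encodes PI31, a protein that inhibits the core in vitro (chr2:151715812-151744186, minus strand). It had 5, 2 and 6 events in Control, 3, 3 and 2 in LPS, 2, 2 and 3 in NMN and 2 in each LPS+NMN library. The Control libraries were spread, and replicate 2, with 2 events, lay at the level of LPS+NMN. The difference between LPS+NMN and Control was -0.74 ± 0.27 (SE; limma, adjusted p = 0.464), and between NMN and Control -0.60 ± 0.27 (limma, adjusted p = 0.7). Without Control replicate 2, the difference between LPS+NMN and Control was -1.11 and passed the threshold (limma, adjusted p = 0.0294), the only member called in any setting of the 4 comparisons. Over the other settings, the adjusted limma p of this difference ran from 0.46 to 0.725. The cassette of exons 2 and 3 was listed as skipped in 2 Control, 2 LPS, 1 NMN and no LPS+NMN libraries, and skipping of the 83-base exon alone in 2 Control libraries and no other.

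Psme3, the nuclear PA28 gamma, had 6 events in 11 libraries and 7 in NMN replicate 3. Psme4, which encodes the activator PA200, had 4, 6 and 5 events in Control, 5, 4 and 4 in LPS, 4 in each NMN library and 4, 6 and 4 in LPS+NMN. Its groups overlapped in all 4 comparisons. Psme3ip1, an interaction partner of Psme3 that GENCODE M21 names Fam192a, had the most events of the 48 genes. It had 8, 11 and 10 in Control, 10, 10 and 12 in LPS, 10 in each NMN library and 10, 17 and 16 in LPS+NMN. The difference between LPS+NMN and Control was 0.50 ± 0.20 (SE; limma, adjusted p = 0.54), and 1 of the 3 LPS+NMN libraries lay within the Control range. Psmc3ip, a partner of meiotic recombinases, had 4 events in 11 libraries and 2 in LPS replicate 2.

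In the regulatory particle that caps the core, the ATPase Psmc6 (chr14:45329788-45349705, plus strand) had 9 events in each Control library. It had 8, 6 and 7 in LPS, 6, 7 and 7 in NMN and 7, 7 and 9 in LPS+NMN. Both single-agent groups lay below Control without overlap. The differences were -0.33 ± 0.16 (SE) for LPS (limma, adjusted p = 0.672) and -0.39 ± 0.16 for NMN (limma, adjusted p = 0.652). An alternative exon start, with forms of 826 and 62 bases, was listed in all 3 Control libraries, 1 LPS library, no NMN library and 1 LPS+NMN library. Its skipped exon of 156 bases was entered in an exact and an approximate form in all 12 libraries, which counts as 2 events. Of the other ATPases, Psmc2 and Psmc5 were constant, Psmc4 had 2 or 3 events, Psmc1 4 or 5 and Psmc3 4 to 6.

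Psmd12, a subunit of the lid, which is the part that removes ubiquitin chains (chr11:107479484-107504362, plus strand), had 3 events in each Control library. It had 3, 2 and 3 in LPS and 2 in every NMN and LPS+NMN library. NMN and LPS+NMN each differed from Control by -0.42 ± 0.13 (SE), with a limma p of 0.00795 and adjusted p-values of 0.447 for NMN and 0.385 for LPS+NMN. The third event of the Control libraries was not the same throughout: replicates 2 and 3 had the skipping of exon 9, and replicate 1 a second last exon with the boundary of Psmd12-203. Skipping of exon 9 was also listed in LPS replicates 1 and 3. In LPS replicate 3 the first and last exon of Psmd12 were on the opposite strand, so its value of 3 rests on 1 event of the gene's own strand.

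Psmd11, another lid subunit (chr11:80428615-80473248, plus strand), had 19 distinct events and ranged from 5 to 12 within Control. It had 6, 12 and 5 events in Control, 12, 8 and 7 in LPS, 5, 5 and 8 in NMN and 9, 7 and 9 in LPS+NMN. Its groups overlapped in all 4 comparisons, and the difference between LPS+NMN and LPS was -0.08 ± 0.30 (SE) with an adjusted limma p of 1. Single events differed more. Skipping of exon 3 was listed in 2 Control, all 3 LPS, 1 NMN and no LPS+NMN libraries. A cassette of exon 3 and a 63-base exon before it (80325344-80329201) was in 1 Control, all 3 LPS, 1 NMN and no LPS+NMN libraries. A first exon ending at 80320767, as in Psmd11-212, was in no Control, 1 LPS, 1 NMN and all 3 LPS+NMN libraries.

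Psmd4, a ubiquitin receptor, had 5 or 6 events in every library, with 2 ends of 1 exon (169 and 141 bases) in all 12. Psmd2, the large subunit that docks ubiquitin-like domains, had 5 events throughout, including 2 starts of an exon (149 and 57 bases) in all 12. Psmd14, the deubiquitinase of the lid, ranged from 3 to 7 events and Psmd1 from 2 to 5. Psmd3 had 2 events in 11 libraries and 3 in Control replicate 2. In 9 of the 12 libraries its first and last exons were on the opposite strand, where the annotation has Gm12356; its number there counts entries that are not on its own strand.

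Among the assembly chaperones, Psmg2, which pairs with Psmg1 in building the alpha ring, had 4, 5 and 6 events in Control, 5, 3 and 4 in LPS, 3 in each NMN library and 5, 5 and 6 in LPS+NMN. NMN lay below Control without overlap, with a difference of -0.57 ± 0.19 (SE; limma, adjusted p = 0.47). LPS+NMN overlapped with Control, with a difference of 0.09 ± 0.19 (SE; limma, adjusted p = 0.946). The NMN libraries had its 2 first exons and its last exon alone. Psmd5, a chaperone of the ATPase ring, had 4, 2 and 3 events in Control and 6, 3 and 6 in LPS, a difference of 0.57 ± 0.26 (SE; limma, adjusted p = 0.655). Psmg1, Psmg3 and Psmg4 each departed from their usual number in 1 library. Psma3, in the alpha ring, had 6 events in 10 libraries, 7 in NMN replicate 1 and 9 in LPS+NMN replicate 2. Both ends of its exon 2 (83 and 107 bases) were listed in all 12.

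**Figure D5:**
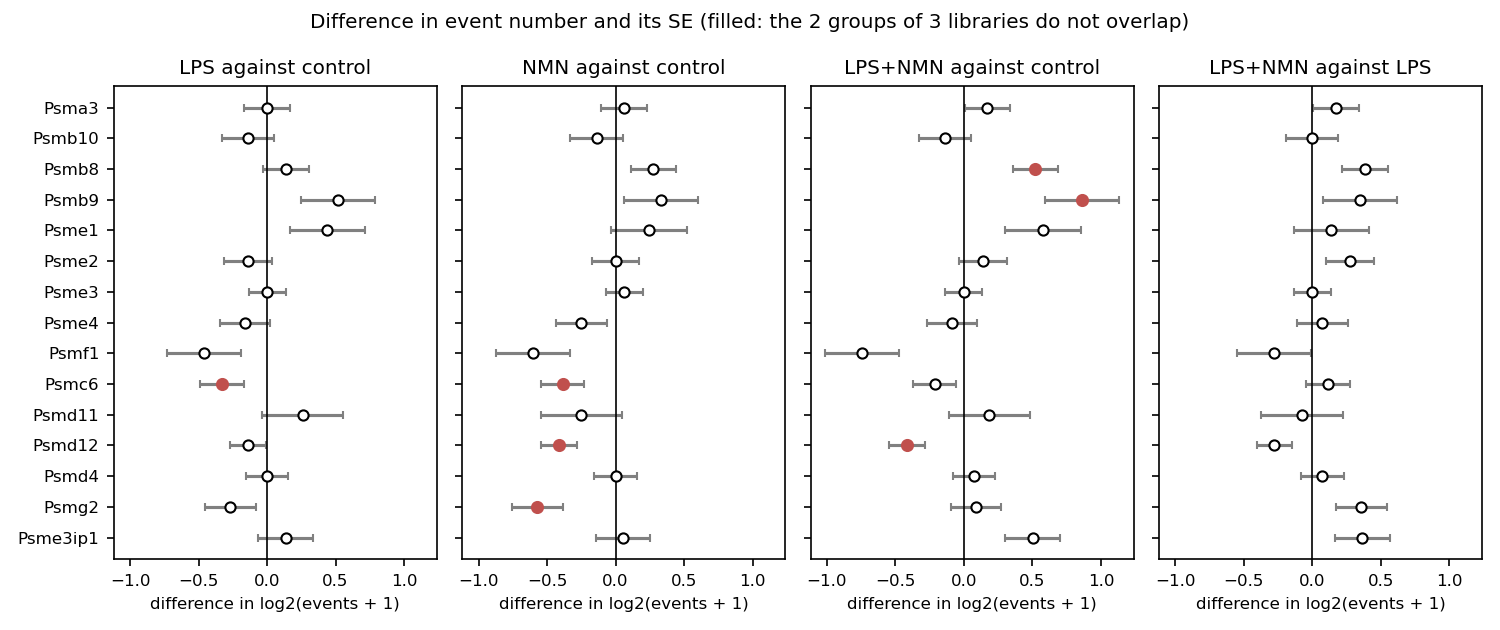
Difference in log2(events + 1) between groups (horizontal axes) with its SE for 15 genes (vertical axis) in the 4 comparisons; filled points are genes whose 2 groups of 3 libraries do not overlap. Psmb8 and Psmb9 lie to the right and Psmd12 to the left in LPS+NMN against Control, and no gene has a filled point in LPS+NMN against LPS.

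None of the 33 genes tested was called in any comparison. With limma at an adjusted p under 0.05, 0 of 33 were called for LPS against Control, where 0.300% of all 11671 genes were, 0 for NMN against Control (0.231% of all genes), 0 for LPS+NMN against Control (0.334%) and 0 for LPS+NMN against LPS (0% of all genes). At an unadjusted limma p under 0.05, LPS against Control had 0 of 33, beside 7.47% of all genes. NMN against Control had 4 of 33 (12.1%), Psmc6, Psmd12, Psmf1 and Psmg2, all lower, beside 7.00% of all genes. LPS+NMN against Control had 5 (15.2%), with Psmb8, Psmb9 and Psme3ip1 higher and Psmd12 and Psmf1 lower, beside 7.45%. LPS+NMN against LPS had 1 (3.03%), Psmb8, higher, beside 4.46%. With 33 genes, 1 gene is 3.03%, and whether these shares differ from those of all genes was not tested.

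Groups that did not overlap were found for 1 of 33 genes in LPS against Control (Psmc6, lower), where 5.21% of all genes had them. NMN against Control had 3 (9.09%; Psmc6, Psmd12 and Psmg2, lower), beside 4.51% of all genes. LPS+NMN against Control had 3 (9.09%; Psmb8 and Psmb9 higher, Psmd12 lower), beside 5.05%. LPS+NMN against LPS had 0, beside 3.22%. The signs were mixed: 12 genes were higher and 14 lower in LPS against Control, 14 and 12 in NMN, 16 and 11 in LPS+NMN, and 17 and 9 in LPS+NMN against LPS. The median difference of the 33 was 0 in each comparison with Control, as for all genes, and 0.07 in LPS+NMN against LPS, where that of all genes was 0. The 3 comparisons with Control share the Control libraries.

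Few single events separated groups fully. In LPS against Control, 1 of 243 proteasome events (0.412%) was in all libraries of 1 group and none of the other, the Psmb9 first exon ending at 34406032, beside 1.21% of the events of all genes. In NMN against Control, 2 of 234 (0.855%; 1.02% of all) were, the 2 forms of the Psmc6 exon, in Control alone. LPS+NMN against Control had 3 of 256 (1.17%; 1.22% of all), 1 each in Psmb8, Psmb9 and Psmd11, all in LPS+NMN. The Psmb9 event was the 132-base form of exon 3, and 1 of the Psmc6 forms had 62 bases. Both are annotated coding exons that are entered when an alternative end is found. A group without such an entry may therefore still use the exon. LPS+NMN against LPS had 2 of 246 (0.813%; 0.770% of all), the 2 skipping events of Psmd11 exon 3, both in LPS. These shares are near or below those of all genes.

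Genes that work with the proteasome showed no calls either. Of 23 genes of its assembly, docking and regulation, 22 were listed and 19 tested, and limma called 0 in each comparison, with 0 at an unadjusted p under 0.05. In LPS against Control, 7 were higher and 5 lower. Ecpas, which tethers the proteasome to other cell structures, had 9, 4 and 6 events in Control and 4, 3 and 5 in LPS, a difference of -0.51 ± 0.27 (SE; limma, adjusted p = 0.7). Of 13 genes of antigen processing downstream of the immunoproteasome, all were listed and 11 tested, and limma called 0 in each comparison. At an unadjusted p under 0.05, 1 of the 11 passed in LPS against Control (7.47% of all genes), 0 in NMN (7.00%), 1 in LPS+NMN (7.45%) and 2 in LPS+NMN against LPS (4.46%). Tap2, the partner of Tap1 in the peptide transporter, had 2, 2 and 3 events in Control, 3, 3 and 4 in LPS and 2 in each LPS+NMN library. Its difference between LPS+NMN and LPS was -0.52 ± 0.17 (SE; limma, adjusted p = 0.822). Tapbp, the chaperone tapasin, had 2 events in each Control and LPS library and 4, 4 and 2 in LPS+NMN (0.49 ± 0.18 above LPS; limma, adjusted p = 0.853).

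Some markers of other cells were listed. Of 4 astrocyte markers, 2 were listed in any library, of 4 neuron markers 1, of 4 oligodendrocyte markers 3 and of 3 fibroblast markers 2. Aqp4, Aldh1l1, Rbfox3, Snap25, Syt1, Mog and Col1a2 were in no library. The oligodendrocyte markers together had 9 to 11 events in Control, 6 to 7 in LPS, 4 to 8 in NMN and 5 to 6 in LPS+NMN. Of these, 2 could be tested, and both had fewer events at an unadjusted limma p under 0.05 in all 3 comparisons with Control, with adjusted calls of 0. Over all genes, 7.47% passed at that level for LPS, 7.00% for NMN and 7.45% for LPS+NMN. The 3 comparisons share the Control libraries and so are not separate findings. The fibroblast markers had 0 to 2 events in Control, 2 to 4 in LPS, 0 to 2 in NMN and 0 to 4 in LPS+NMN. Of 2 tested, 1 had an unadjusted limma p under 0.05 in LPS (7.47% of all genes) and 1 in LPS+NMN (7.45%) against Control. The microglia and macrophage markers had 36 to 38 in Control and 34 to 41 in LPS+NMN. The part of these lists in the differences of the proteasome genes was not tested.

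Promoters were searched for 3 short motifs in the RefSeq windows on GRCm38.p6 that run from 250 bases before to 50 after a gene's start. Of the 48 genes, 41 had an entry, with 45 windows; Psmb1, Psmb2, Psmb7, Psmc3, Psmd3, Psmd7 and Psmg2 had none. The interferon-stimulated response core GAAANNGAA, on either strand, was in 7 of the 45 windows (15.6%), those of Psmb3, Psmb4, Psmc2, Psmd4, Psmd9, Psme1 and Psmg4, beside 8.56% of all 32851 windows. The STAT site TTCNNNGAA, whose letters read the same on both strands, was in 3 (6.67%; 8.30% of all), those of Psmb8, Psmd2 and Psmg1. The antioxidant response core TGACNNNGC was in 6 (13.3%; 12.4% of all), those of Psmb5, Psmb6, Psmc6, Psmd12, Psmd9 and Psme4. Of the 5 immunoproteasome and PA28 genes, Psme1 had the first motif (chr14:55578494-55578522) and Psmb8 the second (chr17:34198088-34198116), shown on the plus strand with the motif in capitals. The Psme1 motif begins at 11, after the RefSeq start, and the Psmb8 motif at -97, before it. Both lie within the GENCODE M21 positions of their genes given above. A match is a run of letters and shows no binding.
Psme1: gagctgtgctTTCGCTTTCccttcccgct
Psmb8: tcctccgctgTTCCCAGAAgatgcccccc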

How the data were processed

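Each file, as deposited by the authors, lists transcript events with type, gene, position, pattern and strand, per the file headers; event starts and ends are positions and not scores, and no deposited value is a level. Among tools, HOMER, MACS2 2.1.0 and BWA 0.7.12 are in the submitters' processing notes, with the build GRCm38; which program wrote the catalogues is not stated. Partner lines without an event and repeated lines were left out, which took 772924 lines to 634522 library events. Between libraries, a first or last exon was taken as the same event by its pattern, other types by start and end. The length printed for a first or last exon is its widest span over the libraries and need not be that of any 1 library.

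Numbers of events per gene were tested with R 4.3.3 and limma 3.58.1 (trend, robust moderation) on log2(events + 1), in 1 model with 4 group means and 8 residual degrees of freedom, for genes with at least 1 event in 3 libraries that were not constant, with Benjamini-Hochberg adjustment at 0.05. The script was tested on simulated data with changes larger than those of the proteasome genes. That run does not show how often changes as small as these are found. Depth is unknown, so no counting interval could be given. Named genes were the 5 immunoproteasome and PA28 genes, Psmb5, Psmb6, Psmb7, Psme3, Psme4 and Psmf1, genes called, up to 5 per comparison with the lowest p and no overlap, and the 8 with the most events; others named were chosen after their values were seen. Of pathway genes, up to 4 per comparison with the lowest p could be named. The members and lists were chosen with earlier results of these data known. Boundaries were matched to GENCODE M21 by length and spacing, with Python 3.11.15 and pandas 2.3.3. Alternatives were other pseudocounts, filters, event sets, moderation, a block, a covariate and leaving out each library. Same-numbered libraries did not vary together. A further marker list is not reported here.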

Additional observations from a re-analysis of the deposited data

Results flagged for a closer look

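For 2 proteasome genes, every library under an agent alone lay on one side of the comparison group's mean. With the other agent present, every library lay on the opposite side of its comparison group's mean. The share of all genes that meet this rule was not counted, so the rule cannot show that these 2 stand out. The differences between the effects were not tested. Psmc6 had 9 events in each Control library and 8, 6 and 7 with LPS, a mean difference of -2.0 events. With NMN present, the LPS+NMN libraries had 7, 7 and 9 events and the NMN libraries 6, 7 and 7 (mean 6.67), a difference of 1.0. These groups overlap: each LPS+NMN library lies above the NMN mean, but the lowest LPS+NMN value, 7, is also the highest NMN value. The effects differ by 3.0 events. Psmg2 had 4, 5 and 6 events in Control (mean 5.0) and 3 in each NMN library, a difference of -2.0. With LPS present, the LPS+NMN libraries had 5, 5 and 6 events and the LPS libraries 5, 3 and 4 (mean 4.0), a difference of 1.33. These groups overlap too: each LPS+NMN library lies above the LPS mean, but the lowest LPS+NMN value, 5, is also the highest LPS value. These effects differ by 3.33 events. Both comparisons share libraries with others in the report.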

How the results depend on the processing

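The number of proteasome genes called by limma was 0 in all 4 comparisons and stayed 0 in every alternative run but 1: leaving out Control replicate 2 gave 1 (Psmf1, -1.11) in LPS+NMN against Control, so leaving out libraries gave 0 to 1. The counts over all genes, which serve as background, moved more. With at least 5 events in 3 libraries, 3, 3 and 10 genes were called for LPS, NMN and LPS+NMN against Control, in place of 35, 27 and 39. Counting splicing events alone gave 3, 2 and 8, and a fit to the compared groups alone gave 1, 1 and 3. LPS+NMN against LPS went from 0 to 3 with a pseudocount of 0.5, to 6 without trend and robust moderation and to 1 with splicing events alone. Leaving out each library gave 32 to 55 genes for LPS, 34 to 44 for NMN, 32 to 55 for LPS+NMN against Control and 0 to 11 for LPS+NMN against LPS, the 55 for LPS without Control replicate 1 and the 11 without LPS replicate 1. The cause was not tested.

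Of 859 differences of single genes under alternatives, 847 neither took the opposite sign nor changed their side of the threshold (some went to or from 0), and 11 took the opposite sign. With splicing events alone, Psme3ip1 was -0.0566 in NMN against Control. The other changes came from leaving out 1 library. In NMN against Control, Psme3ip1 ran from -0.0628 (without Control replicate 1) to 0.1448, and Psmd11 from -0.4739 to 0.0838 (without Control replicate 2). In LPS+NMN against Control, Psme4 ran from -0.2495 to 0.0303 (without Control replicate 2), Psmg2 from -0.0371 (without Control replicate 1) to 0.2056, and Psmd11 from -0.0393 (without Control replicate 3) to 0.5185. In LPS+NMN against LPS, Psme1 ran from -0.1511 (without LPS replicate 1) to 0.3489, with -0.003 without LPS+NMN replicate 1. Psme4 ran there from -0.0877 (without LPS+NMN replicate 2) to 0.1618, and Psmd11 from -0.2206 to 0.1297 (without LPS replicate 1), with 0.0318 without LPS+NMN replicate 2. Psmb8 and Psmb9 stayed higher in LPS+NMN than in Control in every alternative that could test them. Their LPS+NMN and Control libraries did not overlap, so leaving out 1 library could not have reversed this. Other filters, moderation or a block leave the difference itself as it was, so this says little about robustness. Psmb8 could not be tested with at least 5 events or with splicing events alone.

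The replicate block called 33, 26 and 32 genes for LPS, NMN and LPS+NMN against Control and 0 for LPS+NMN against LPS, and 0 proteasome genes. Deviations of same-numbered libraries correlated between -0.0271 and 0.022 over 18 pairs, beside -0.0154 to 0.024 over 36 pairs of unlike number. Event numbers are small, so this cannot tell whether same-numbered libraries shared a culture or a day. The files give no depth, so a missing event cannot be told from one with too few reads.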
